A study of Homo sapiens with 6 samples.

Results

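Macroautophagy was followed through 40 genes that encode its core machinery and cargo receptors. They were taken by name as a list, and all 40 were found among the 57773 genes of the count table, from ULK1 at the start of the pathway to PLEKHM1 at its end. The cells were HEK293, a human line of embryonic kidney origin, and 3 kinds of Cas9 plasmid were transfected into them. One kind encoded 4 guides that cut ZNF146 (the group sgZNF146), another encoded 4 that cut ZNF507 (sgZNF507), and the empty vector (EV) encoded none. All 3 groups thus received Cas9, were selected with puromycin for 36 h and were grown for 2 weeks in all before RNA was taken. RNA was depleted of ribosomal RNA and sequenced in 2 libraries per group, with 22724439 to 28524025 counts per library. No cloning step is named, so each library is taken as a population that may mix edited and unedited cells, and fewer cells with a transcript and less of it per cell cannot be told apart.

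In macroautophagy a double membrane closes around cytoplasm or a marked cargo and carries it to the lysosome. The ULK1 kinase complex starts the process, and a class III phosphatidylinositol 3-kinase complex marks the site with the lipid PI3P. Lipids are then supplied to the growing membrane, a ubiquitin-like conjugation system attaches proteins of the ATG8 family to it, receptors bind ATG8 proteins and cargo, and a last set of proteins joins the closed autophagosome to the lysosome. Many genes of autophagy and of lysosomes are known targets of TFEB and its relatives, which bind DNA elements with the core CACGTG.

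The RNA level of 1 of the 2 targeted genes fell. Edits at the guide sites and protein were not analysed here, and the RNA level of a targeted gene need not follow either. ZNF507 was measured at 72.0 and 75.5 CPM (counts per 1e+06 counts of the library, after TMM normalization) in EV, 71.3 and 73.3 in sgZNF146 and 47.2 and 48.7 in sgZNF507. In sgZNF507 against EV it fell by 0.62 on the log2 scale (adjusted p = 0.00195 in edgeR's quasi-likelihood test, adjusted by Benjamini-Hochberg across the table). ZNF146 was at 99.2 and 103 CPM in sgZNF146 against 115 and 105 in EV, with a log2 fold change of -0.13 and an adjusted p of 1.00. In sgZNF507, whose guides cut the other gene, ZNF146 was at 88.4 and 101 CPM, a log2 fold change of -0.21 against EV. Of 6 genes listed as markers of HEK293 cells, 6 were counted in every library. Of 8 markers of other cell types, 7 were in the table, and PTPRC, CD3E, ALB and HBB had at most 6 counts in any library.

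One autophagy gene stood apart, ATG14, whose protein directs the class III PI 3-kinase complex to the sites where autophagosomes form. It lies on the minus strand of chromosome 14 of GRCh37 (hg19), from 55833109 to 55878548. Its counts in the order EV, sgZNF146, sgZNF507, replicate 1 before replicate 2, were 604, 761, 631, 682, 850, 1064. Scaled to library size it was at 24.3 and 27.5 CPM in EV, 24.9 and 27.1 in sgZNF146 and 36.9 and 36.7 in sgZNF507. Both sgZNF507 libraries lay above all 4 others, and the other 4 overlapped. The group means were 25.9 ± 2.31 CPM in EV, 26.0 ± 1.59 in sgZNF146 and 36.8 ± 0.111 in sgZNF507 (SD, n = 2 each). In sgZNF507 against EV this was a 1.42-fold difference, a log2 fold change of 0.51 (standard error, SE, of 0.094 and 95% interval 0.30 to 0.71). Against sgZNF146 the log2 fold change was 0.50 (SE 0.094, interval 0.30 to 0.71), and in sgZNF146 against EV it was 0.0038 (SE 0.095, interval -0.20 to 0.21).

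The difference in ATG14 missed the threshold of 0.05 in the test applied to all genes. The adjusted p in edgeR was 0.0677 in sgZNF507 against EV and 0.0744 in sgZNF507 against sgZNF146, from unadjusted p of 1.4e-04 and 1.5e-04. By p, ATG14 was in place 45 of the 22010 genes tested in the first comparison, where 40 genes passed, and in place 44 in the second, where 38 passed. DESeq2, run as an alternative, put ATG14 past the threshold, with an adjusted p of 0.0329 on the EV and sgZNF507 libraries alone and 0.0122 on all 6. For sgZNF507 against sgZNF146, DESeq2 gave 0.0252 and 0.0184. In edgeR without a filter on low counts the adjusted p was 4.7e-04 against EV. With the replicate number as a block, which the labels do not establish as the design, it was 1.7e-05 in edgeR and 0.00390 in DESeq2. The size of the difference hardly depended on these choices, whereas the p did depend on them. When single libraries were omitted, the log2 fold change of ATG14 against EV ran from 0.42 to 0.60 and the adjusted p in edgeR from 0.112 to 0.859. The lowest log2 fold change and the highest p were found without EV replicate 1. Against sgZNF146 the adjusted p reached 1.00 without sgZNF146 replicate 1, at a log2 fold change of 0.45.

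**Figure D1:**
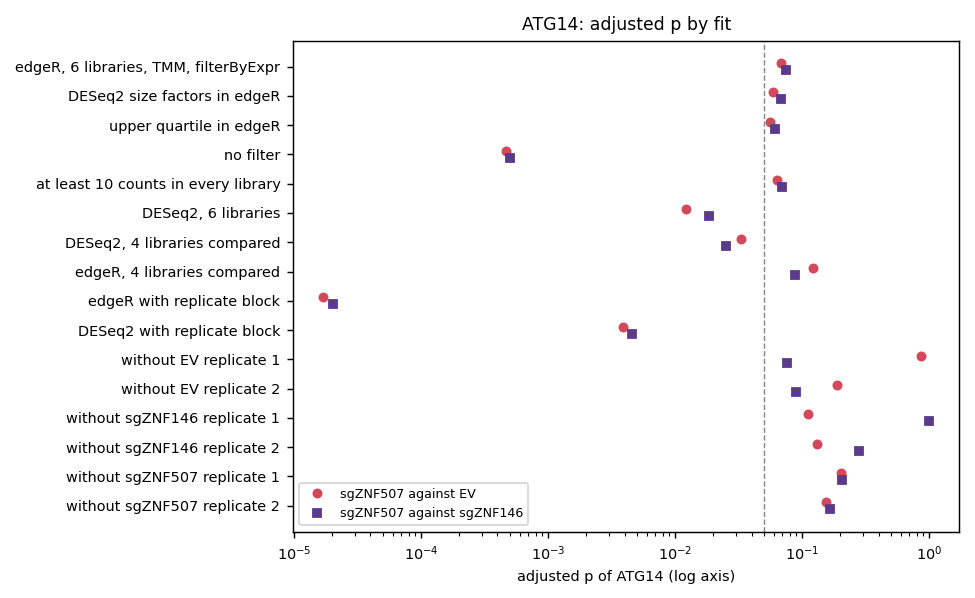
Adjusted p of ATG14 (log axis) under each fit tried, for sgZNF507 against EV (circles) and against sgZNF146 (squares), with a dashed line at 0.05. Fits without a filter, with DESeq2 or with a replicate block lie left of the line, and the other edgeR fits, those that leave out a library included, lie right of it.

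The stretch upstream of the ATG14 start is shown because it holds a CACGTG core. Among RefSeq promoter windows of 250 bases before to 50 bases after the start (RefSeq on GRCh38.p14), 33 of the 40 genes had an entry, and CACGTG was found in 2 of them, ATG14 and ATG3, or 6.06%, against 7.43% of all 27305 windows. The longer TCACGTG, counted on both strands and containing the first motif, was found in the same 2 genes and in 3.82% of all windows. The 250 upstream bases of both genes each matched GRCh37 at 1 place, at chr14:55878549-55878798 and chr3:112280810-112281059, and are written 5′ to 3′ on the minus strand, with CACGTG in capitals.
ATG14: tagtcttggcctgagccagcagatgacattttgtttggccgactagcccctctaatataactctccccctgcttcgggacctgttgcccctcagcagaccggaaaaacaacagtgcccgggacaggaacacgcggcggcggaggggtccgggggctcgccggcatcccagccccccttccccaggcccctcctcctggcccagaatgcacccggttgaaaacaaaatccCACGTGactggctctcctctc
ATG3: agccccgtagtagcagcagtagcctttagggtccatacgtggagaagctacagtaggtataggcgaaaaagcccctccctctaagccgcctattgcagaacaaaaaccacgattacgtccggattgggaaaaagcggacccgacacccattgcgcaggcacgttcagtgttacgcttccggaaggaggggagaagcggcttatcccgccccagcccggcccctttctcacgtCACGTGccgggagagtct
In ATG14 the core begins 21 bases before the start. ATG3 has it 18 bases before the start and again at base 6 after it. The 2 genes did not share a pattern of expression. ATG3, whose enzyme passes ATG8 proteins to their lipid, was at 48.1 and 51.7 CPM in EV, 50.3 and 44.9 in sgZNF146 and 46.0 and 50.0 in sgZNF507, and its log2 fold change in sgZNF507 against EV was -0.055 (SE 0.085, adjusted p = 1.00). A match of these letters is a description of the sequence, and binding was not measured here.

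The genes around ATG14 were examined for a shift they might share with it. Exons of ATG14 overlap exons of FBXO34, which lies on the opposite strand, and the strand setting of the counting is not given in the sources used here. FBXO34 was at 38.9 and 39.1 CPM in EV, 38.2 and 35.6 in sgZNF146 and 35.4 and 40.3 in sgZNF507, and its log2 fold change was -0.040 in sgZNF507 against EV (SE 0.088, adjusted p = 1.00). HMGN1P1, a pseudogene within ATG14 on the same strand, had 28 to 51 counts per library and a log2 fold change of 0.058 (SE 0.27). The 5 nearest tested protein-coding genes on each side had log2 fold changes between -0.17 and 0.20 in sgZNF507 against EV. Of these 10, 0 had an unadjusted p under 0.05 in edgeR, against 3.39% of all tested genes. In sgZNF146 against EV they ran from -0.57 to 0.19, and 1 had such a p, against 2.43%. Counts over so few genes cannot show whether a shift was shared. Among markers of other cell types, the collagen gene COL1A1 was also higher in sgZNF507, with a log2 fold change of 0.18 (SE 0.075, adjusted p = 1.00) in edgeR. The 7 markers summed to 69.8 and 74.3 CPM in EV, 66.6 and 72.3 in sgZNF146 and 75.7 and 84.3 in sgZNF507, and their part in the ATG14 difference was not tested.

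The other 4 genes listed with ATG14 under the class III PI 3-kinase had log2 fold changes in sgZNF507 against EV of at most 0.083. The class III PI 3-kinase is built on the catalytic subunit PIK3C3, the scaffold PIK3R4 and BECN1, and takes either ATG14, for autophagosome formation, or UVRAG, for endosomal sorting and later steps. BECN1 was at 64.9 and 68.4 CPM in EV, 64.5 and 67.4 in sgZNF146 and 66.5 and 68.1 in sgZNF507, with groups that overlapped and a log2 fold change in sgZNF507 against EV of 0.014 (SE 0.070, adjusted p = 1.00). UVRAG was at 26.0 and 23.5 CPM in EV, 23.2 and 23.1 in sgZNF146 and 27.3 and 24.3 in sgZNF507. Both sgZNF146 libraries lay below both EV libraries for UVRAG, by a log2 fold change of -0.096 (SE 0.099, adjusted p = 1.00), while sgZNF507 overlapped EV, with 0.059 (SE 0.099, adjusted p = 1.00). PIK3R4 was at 71.9 and 68.8 CPM in EV, 68.9 and 68.4 in sgZNF146 and 76.4 and 72.6 in sgZNF507, with both sgZNF507 libraries highest and a log2 fold change of 0.083 (SE 0.068, adjusted p = 1.00) against EV. AMBRA1, a regulator that binds BECN1, was at 95.4 and 91.4 CPM in EV, 94.8 and 89.4 in sgZNF146 and 95.1 and 98.0 in sgZNF507, with a log2 fold change of 0.048 (SE 0.065, adjusted p = 1.00). PIK3C3 itself, which is outside the list of 40, was at 27.0 and 27.4 CPM in EV, 26.7 and 29.5 in sgZNF146 and 26.1 and 30.0 in sgZNF507, and its log2 fold change of 0.045 (SE 0.098, adjusted p = 1.00) was within its error of 0.

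The make-up of the complexes at the RNA level can be given per library as a ratio of levels per kilobase of exon. ATG14 over BECN1 was 0.477 and 0.513 in EV, 0.492 and 0.513 in sgZNF146 and 0.708 and 0.689 in sgZNF507. ATG14 over UVRAG was 1.36 and 1.71 in EV, 1.57 and 1.72 in sgZNF146 and 1.98 and 2.21 in sgZNF507. Both ratios were highest in the 2 sgZNF507 libraries, without overlap with the other 4. As BECN1 and UVRAG differed little, this largely restates the ATG14 values, after which the ratios were chosen. UVRAG over BECN1, which does not involve ATG14, overlapped between sgZNF507 (0.358 and 0.311) and EV (0.350 and 0.299). The summed level of the 5 listed genes of this group was 281 ± 2.09 CPM in EV, 276 ± 0.577 in sgZNF146 and 301 ± 1.80 in sgZNF507 (SD, n = 2 each). Without ATG14, no other gene of the group had an unadjusted p under 0.05 in edgeR in any of the 3 comparisons.

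**Figure D2:**
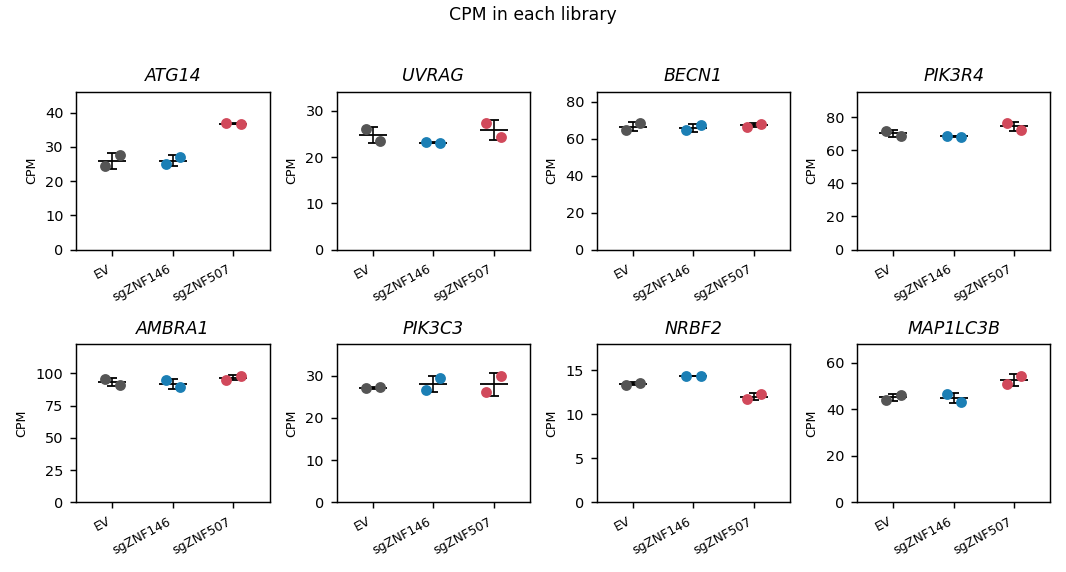
CPM in each library (points) of ATG14, the genes that share its complex or bind it, and MAP1LC3B, by group, with the mean (bar) and SD (whiskers, n = 2) and each axis starting at 0. ATG14 sits at 36.9 and 36.7 CPM in sgZNF507, above the 24.3 to 27.5 CPM of the other 4 libraries. BECN1, UVRAG, AMBRA1 and PIK3C3 overlap between sgZNF507 and EV. Both sgZNF507 libraries lie above EV for PIK3R4 and MAP1LC3B and below EV for NRBF2.

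MAP1LC3B encodes LC3B, the ATG8 protein most used to mark autophagosomes, and was the only other listed gene with an unadjusted p under 0.05 in edgeR. It was at 44.0 and 46.1 CPM in EV, 46.5 and 43.2 in sgZNF146 and 50.7 and 54.2 in sgZNF507, so that both sgZNF507 libraries lay above the other 4. The log2 fold change was 0.22 in sgZNF507 against EV (SE 0.079, interval 0.049 to 0.39, unadjusted p = 0.0157, adjusted p = 1.00 in edgeR) and 0.23 against sgZNF146 (SE 0.079, unadjusted p = 0.0135, adjusted p = 1.00 in edgeR). In sgZNF146 against EV it was -0.0068. The difference did not pass the threshold under any fit tried, with adjusted p of at least 0.165 against EV and 0.109 against sgZNF146. FBXO31, which overlaps exons of MAP1LC3B on the opposite strand, had a log2 fold change of 0.047 in sgZNF507 against EV (SE 0.081). The near-identical copy MAP1LC3B2 had at most 3 counts in any library. How reads that match both copies were counted is not given in the sources used here. Its low count therefore does not show whether it was transcribed.

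The other members of the ATG8 family had groups that overlapped between sgZNF507 and EV. GABARAPL2 was the highest of the family per kilobase of exon, at 16.1 CPM per kilobase over the 6 libraries. It was at 50.2 and 46.0 CPM in EV, 47.4 and 48.1 in sgZNF146 and 47.3 and 51.0 in sgZNF507, and its log2 fold change in sgZNF507 against EV was 0.033 (SE 0.080, adjusted p = 1.00). GABARAP was at 12.9 and 11.6 CPM in EV, 13.0 and 13.6 in sgZNF146 and 13.8 and 12.4 in sgZNF507, slightly above EV in both sgZNF146 libraries, with a log2 fold change there of 0.11 (SE 0.12, adjusted p = 1.00). GABARAPL1 was at 31.7 and 26.3 CPM in EV, 30.4 and 26.6 in sgZNF146 and 36.0 and 27.0 in sgZNF507. Its replicate 1 was the higher library in each group, and the replicates differed more within sgZNF507, by 0.41 on the log2 scale, than the groups did (0.11 in sgZNF507 and -0.024 in sgZNF146 against EV). MAP1LC3A had at most 7 counts in any library and was too low to be tested. All 4 tested genes of the family had a log2 fold change above 0 in sgZNF507 against EV, as 49% of all tested genes had, and 1 of the 4, MAP1LC3B, had groups that did not overlap, as 29.3% of all tested genes had.

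Over the whole list, 39 of the 40 genes had enough counts to be tested, all but MAP1LC3A. The 39 had between 155 and 4299 counts per library. In sgZNF507 against EV, 0 of the 39 had an adjusted p under 0.05 in edgeR, where 0.182% of all 22010 tested genes did (0.114% higher, 0.0682% lower). Unadjusted p under 0.05 applied to 2, ATG14 and MAP1LC3B, both higher, against 3.39% of all genes (1.44% higher, 1.96% lower) in edgeR. DESeq2 called 1, ATG14, and no fit tried called more than 121 genes of the whole table in this comparison. The groups did not overlap in 12 genes (8 higher, 4 lower), or 30.8% of the 39 against 29.3% of all genes (14% higher, 15.3% lower). The 8 were ULK1, ULK2, ATG14, PIK3R4, WDR45, MAP1LC3B, SQSTM1 and NBR1, and the 4 were WDR45B, ATG4D, ATG12 and OPTN. In sgZNF146 against EV, 0 of the 39 passed in edgeR or DESeq2, 0 had an unadjusted p under 0.05 in edgeR (2.43% of all genes, 1.2% higher and 1.23% lower), and 10 had groups without overlap (4 higher, 6 lower), or 25.6% against 28.6% (14% higher, 14.6% lower). The 4 were ULK2, GABARAP, SQSTM1 and EPG5, and the 6 were UVRAG, ATG4A, ATG4D, ATG5, ATG16L1 and CALCOCO2. No gene of the whole table, 0%, passed in that comparison in edgeR on the 6 libraries, while 3 passed on the 4 libraries compared, both in edgeR and in DESeq2, and 19 in edgeR without a filter. In sgZNF507 against sgZNF146, 0 of 39 passed in edgeR (0.173% of all genes, 0.104% higher and 0.0682% lower). Unadjusted p under 0.05 applied to 2, again ATG14 and MAP1LC3B, both higher (4.03% of all genes, 1.87% higher and 2.16% lower), and 12 genes did not overlap (10 higher, 2 lower), or 30.8% against 32.1% (15.5% higher, 16.5% lower).

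The median log2 fold change of the 39 genes was 0.039 in sgZNF507 against EV, -0.0068 in sgZNF146 against EV and 0.036 in sgZNF507 against sgZNF146, where the medians of all genes were -0.0032, -0.0013 and -0.0040. With 1 library left out, the first of these ran from 0.0085 without sgZNF507 replicate 2 and 0.0100 without EV replicate 2 up to 0.043. The first and last of these comparisons share the sgZNF507 libraries, and the first and second share the EV libraries. In sgZNF507 against EV, 27 of 39 genes had a log2 fold change above 0 (49% of all genes did) and 12 below, with a range of -0.19 (OPTN) to 0.51 (ATG14). In sgZNF146 against EV it was 15 above (49.5% of all genes) and 24 below, with a range of -0.14 (ATG4C) to 0.11 (GABARAP). In sgZNF507 against sgZNF146 it was 28 above (48.8% of all genes) and 11 below. The 95% interval lay within 1.5-fold of no change for 38 genes in sgZNF507 against EV (97.4%) and for all 39 in sgZNF146 against EV, where it did so for 60.2% and 60.7% of all tested genes, many of them low in counts. In sgZNF507 against sgZNF146 it did so for 38, against 59.5%. Among protein-coding genes at or above the level of the lowest of the 39, the share was 98.9% in sgZNF507 against EV and 99.3% in sgZNF146 against EV. The exception was ATG14, whose interval reached 1.64-fold.

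**Figure D3:**
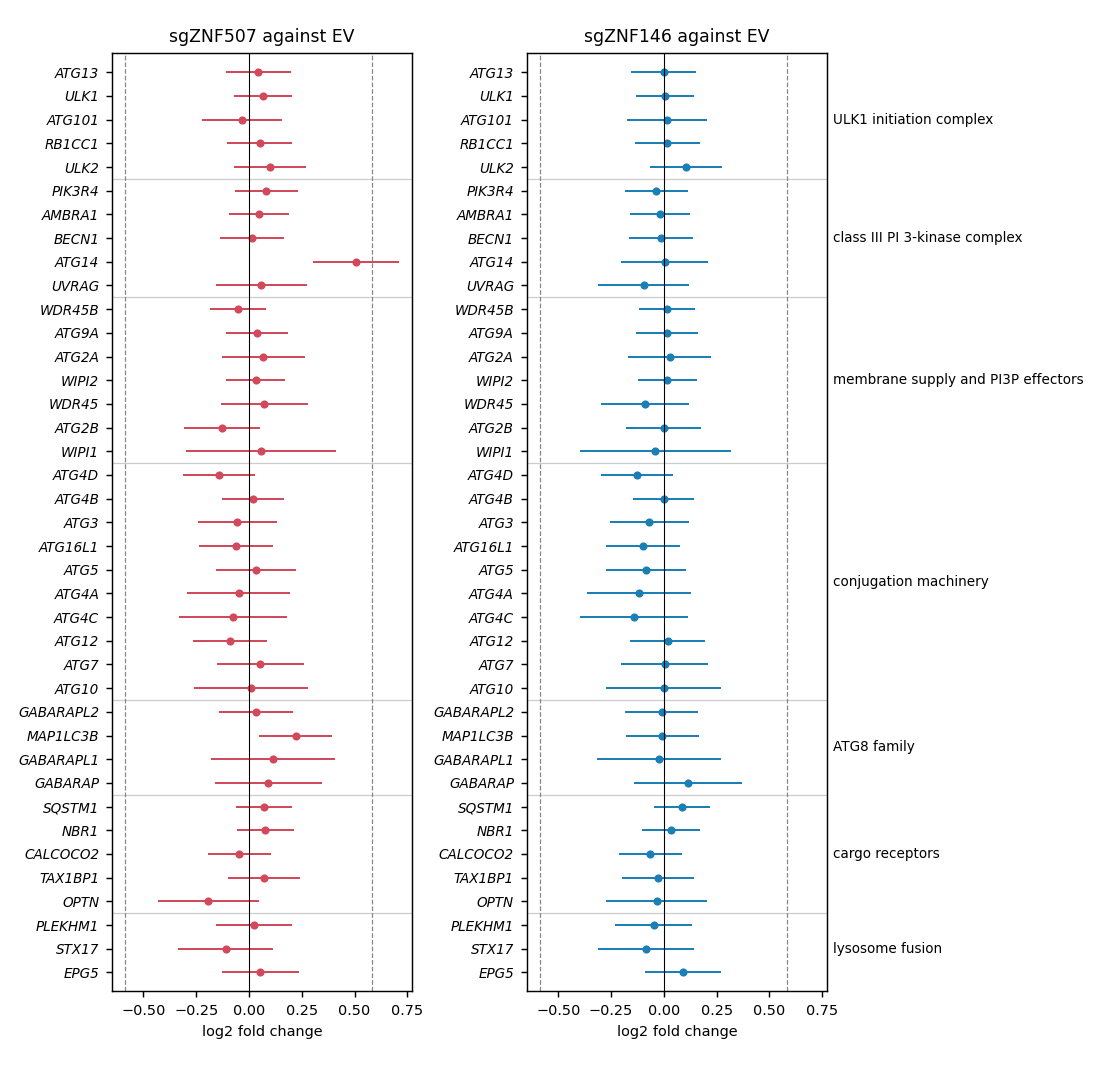
Log2 fold change (points) and 95% interval (lines) from edgeR of the 39 tested genes, by role, in sgZNF507 against EV (left) and sgZNF146 against EV (right), with dashed lines at 1.5-fold. In sgZNF507 the interval of ATG14 crosses the 1.5-fold line and those of ATG14 and MAP1LC3B exclude 0, and in sgZNF146 every interval includes 0.

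Among the genes of the ULK1 complex, which starts autophagy when nutrients are low, no difference passed the test. The kinases ULK1 and ULK2 phosphorylate later factors, and ATG13, ATG101 and RB1CC1 (FIP200) hold the complex together. ULK2 was the lowest of the group per kilobase, at 4.17 CPM per kilobase against 11.2 for ATG13, the highest. ULK2 was at 39.3 and 39.2 CPM in EV, 41.1 and 43.2 in sgZNF146 and 41.2 and 42.9 in sgZNF507. Both disrupted groups lay above EV for it, but the log2 fold changes were 0.10 (SE 0.078, adjusted p = 1.00) and 0.10 (SE 0.078, adjusted p = 1.00) in sgZNF507 and sgZNF146. ULK1 was at 80.5 and 80.0 CPM in EV, 79.6 and 81.5 in sgZNF146 and 84.1 and 84.1 in sgZNF507, highest in sgZNF507 by a log2 fold change of 0.067 (SE 0.063, adjusted p = 1.00). ATG101, the lowest log2 fold change of the group in sgZNF507, was at 32.4 and 34.4 CPM in EV, 32.5 and 35.0 in sgZNF146 and 31.6 and 33.7 in sgZNF507, and ATG13 was at 81.9 and 74.0 CPM in EV, 76.6 and 79.1 in sgZNF146 and 81.0 and 79.6 in sgZNF507. For both, EV and the disrupted groups overlapped. RB1CC1 differed by 0.050 in sgZNF507 and 0.016 in sgZNF146 against EV on the log2 scale, with an SE of 0.070.

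The genes that supply membrane or read PI3P covered the widest range of levels among the tested genes. WDR45B, a PI3P-binding protein of the WIPI family, was the highest of all 39 at 32.6 CPM per kilobase, and its relative WIPI1 was at 2.22. WIPI1 was at 7.83 and 7.20 CPM in EV, 6.11 and 8.51 in sgZNF146 and 7.46 and 8.15 in sgZNF507. Its replicates in sgZNF146 lay further apart, relative to their level, than those of any other of the 39 in any group, and its log2 fold changes of 0.058 and -0.040 in sgZNF507 and sgZNF146 had an SE of 0.16 and 0.16. WDR45B was at 119.7 and 113 CPM in EV, 118 and 117 in sgZNF146 and 113 and 112 in sgZNF507, with both sgZNF507 libraries below the other 4 and a log2 fold change of -0.052 (SE 0.062, adjusted p = 1.00) against EV. ATG2B, a lipid transfer protein, was at 77.8 and 84.0 CPM in EV, 77.5 and 84.3 in sgZNF146 and 68.7 and 79.2 in sgZNF507. It had the most negative log2 fold change of the group in sgZNF507, -0.13 (SE 0.082, adjusted p = 1.00), with overlap between the groups and a range of -0.23 to -0.032 with 1 library left out, while its paralog ATG2A was at 98.9 and 117 CPM in EV, 105 and 115 in sgZNF146 and 105 and 121 in sgZNF507, with a log2 fold change of 0.067 (SE 0.091, adjusted p = 1.00). In both paralogs replicate 2 was the higher library in all 3 groups. WDR45 was at 28.4 and 28.2 CPM in EV, 24.5 and 28.7 in sgZNF146 and 30.0 and 29.7 in sgZNF507, with both sgZNF507 libraries above EV and sgZNF146 overlapping EV. Its log2 fold changes were 0.073 (SE 0.095, adjusted p = 1.00) in sgZNF507 and -0.091 (SE 0.096, adjusted p = 1.00) in sgZNF146. ATG9A, the scramblase carried on the vesicles that seed the membrane, and WIPI2, which recruits ATG16L1, differed from EV by no more than 0.039 in either group on the log2 scale.

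In the conjugation machinery no gene passed the test. Log2 fold changes were above 0 for 4 of 10 genes in sgZNF507 and 2 of 10 in sgZNF146 against EV, where 49% and 49.5% of all tested genes were above 0. ATG7 and ATG10 act as the activating and conjugating enzymes for ATG12, which is joined to ATG5 and bound by ATG16L1, while the ATG4 proteases trim ATG8 proteins. ATG4D was the highest of the group per kilobase, at 18.8 CPM per kilobase, and ATG10 the lowest, at 1.97. ATG4D was at 43.9 and 47.2 CPM in EV, 40.9 and 42.6 in sgZNF146 and 42.0 and 40.7 in sgZNF507. All 4 libraries with guides lay below both EV libraries, with log2 fold changes of -0.14 (SE 0.079, adjusted p = 1.00) in sgZNF507 and -0.13 (SE 0.079, adjusted p = 1.00) in sgZNF146, which share the EV libraries. ATG4C, the most negative in sgZNF146, was at 14.8 and 13.4 CPM in EV, 11.9 and 13.7 in sgZNF146 and 13.6 and 13.2 in sgZNF507, and its log2 fold change was -0.14 (SE 0.12, adjusted p = 1.00). ATG12 was at 34.7 and 34.6 CPM in EV, 35.5 and 34.7 in sgZNF146 and 31.9 and 33.1 in sgZNF507, with both sgZNF507 libraries below the other 4 and a log2 fold change of -0.091 (SE 0.081, adjusted p = 1.00) against EV. Lower than EV in both sgZNF146 libraries were also ATG4A, ATG5 and ATG16L1, with log2 fold changes of -0.12, -0.084 and -0.098 and SEs of 0.11, 0.087 and 0.081. ATG10 was at 10.8 and 10.7 CPM in EV, 10.1 and 11.4 in sgZNF146 and 10.2 and 11.4 in sgZNF507. ATG4B, the main protease of the family, and ATG10 overlapped between the groups, with log2 fold changes in sgZNF507 of 0.019 and 0.011. ATG7, the highest log2 fold change of the group in sgZNF507, was at 29.0 and 29.1 CPM in EV, 27.7 and 30.6 in sgZNF146 and 28.3 and 31.9 in sgZNF507, with overlap. The summed level of the 10 genes was 350.3 ± 6.73 CPM in EV, 338 ± 2.04 in sgZNF146 and 342 ± 9.79 in sgZNF507 (SD, n = 2 each).

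Cargo receptors link ubiquitin-marked cargo to ATG8 proteins. SQSTM1 (p62), itself consumed by autophagy as a protein, was the highest of the 5 per kilobase at 18.4 CPM per kilobase, and OPTN, a receptor for damaged mitochondria and bacteria, the lowest at 4.54. SQSTM1 was at 130.5 and 137 CPM in EV, 139 and 145 in sgZNF146 and 140.4 and 141 in sgZNF507. Both disrupted groups lay above EV, with log2 fold changes of 0.069 (SE 0.061, adjusted p = 1.00) in sgZNF507 and 0.087 (SE 0.061, adjusted p = 1.00) in sgZNF146. NBR1, a related receptor, was at 136 and 137 CPM in EV, 136 and 144 in sgZNF146 and 139.9 and 148 in sgZNF507, with a log2 fold change of 0.078 (SE 0.063, adjusted p = 1.00) in sgZNF507. OPTN was at 22.6 and 26.4 CPM in EV, 22.6 and 25.4 in sgZNF146 and 20.3 and 22.6 in sgZNF507, the most negative of all 39 genes in sgZNF507 at -0.19 (SE 0.11, adjusted p = 1.00). With 1 library left out it ran from -0.30 to -0.079. The 2 sgZNF507 libraries lay below both EV libraries only by a narrow margin, and replicate 2 was higher in every group. CALCOCO2 (NDP52) was at 71.6 and 70.1 CPM in EV, 69.0 and 66.5 in sgZNF146 and 66.8 and 70.4 in sgZNF507 , lower than EV in both sgZNF146 libraries, with a log2 fold change of -0.065 (SE 0.069, adjusted p = 1.00). TAX1BP1 overlapped between all groups, with a log2 fold change of 0.072 (SE 0.078, adjusted p = 1.00) in sgZNF507.

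The fusion genes were among the lowest per kilobase, a measure that divides by the length of all annotated exons joined. Of the 40 genes that length was greatest for EPG5, 22221 bases, and PLEKHM1, 14746 bases. STX17, the SNARE protein of the closed autophagosome, EPG5, a tether that acts with it, and PLEKHM1, an adaptor that links ATG8 proteins to the lysosomal tethering machinery, were at 2.39, 1.94 and 3.38 CPM per kilobase. STX17 was at 20.4 and 24.1 CPM in EV, 20.6 and 21.4 in sgZNF146 and 21.0 and 20.3 in sgZNF507, with overlap between the groups and a log2 fold change of -0.11 (SE 0.10, adjusted p = 1.00) in sgZNF507 and -0.085 (SE 0.10, adjusted p = 1.00) in sgZNF146. EPG5 was at 44.0 and 39.2 CPM in EV, 44.1 and 44.5 in sgZNF146 and 42.0 and 44.4 in sgZNF507, and both sgZNF146 libraries lay just above EV replicate 1. Its log2 fold changes were 0.054 (SE 0.084, adjusted p = 1.00) in sgZNF507 and 0.090 (SE 0.084, adjusted p = 1.00) in sgZNF146. PLEKHM1 was at 46.4 and 53.7 CPM in EV, 48.5 and 48.4 in sgZNF146 and 50.6 and 51.4 in sgZNF507, and sgZNF507 and sgZNF146 each overlapped EV. Its log2 fold changes were 0.025 in sgZNF507 and -0.049 in sgZNF146, with an SE of 0.083. Summed over the 40 genes, the level was 2178 ± 16.8 CPM in EV, 2174 ± 30.7 in sgZNF146 and 2226 ± 34.4 in sgZNF507 (SD, n = 2 each).

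**Figure D4:**
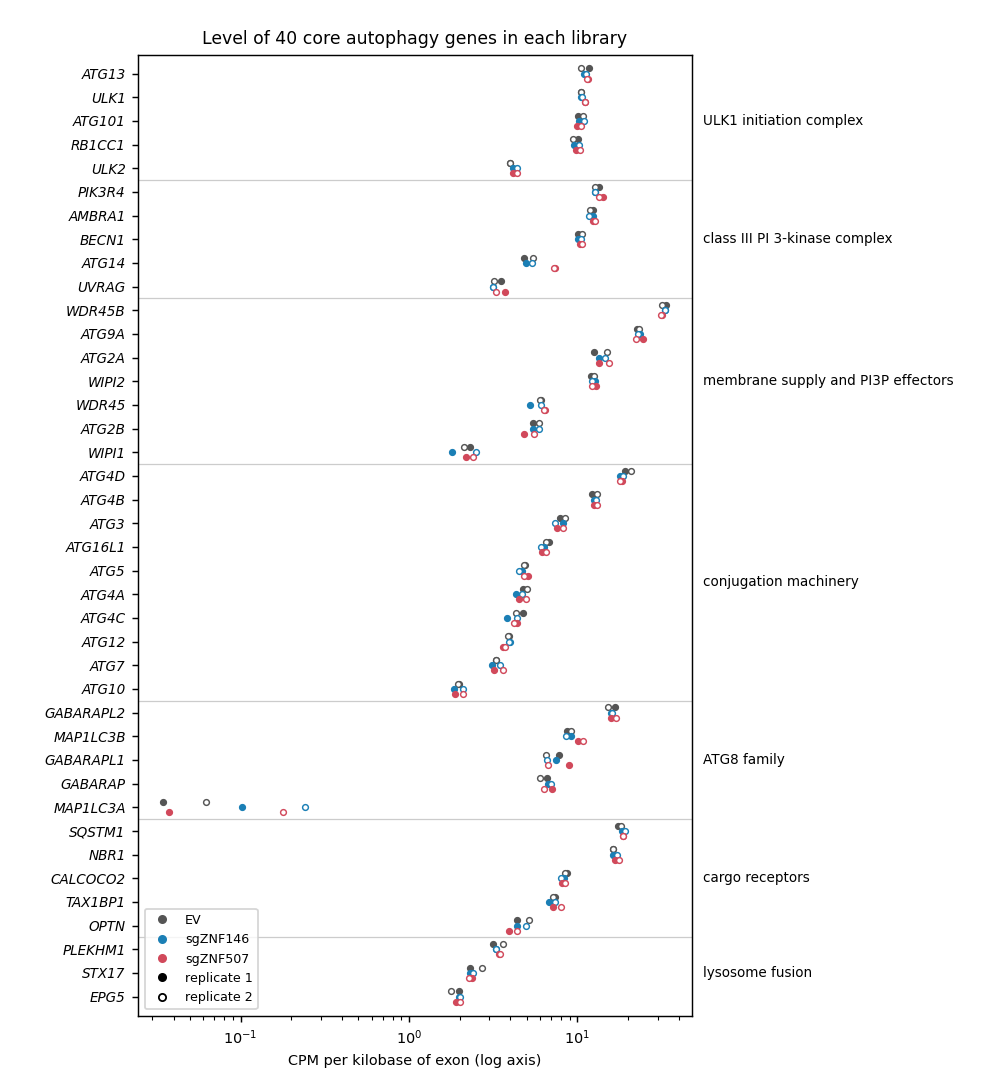
Level of the 40 genes in each library in CPM per kilobase of exon (log axis), grouped by role and ordered within a role by mean level, with colors for the groups and filled or open points for replicates 1 and 2. Most genes lie between 2 and 33 CPM per kilobase with the 6 libraries close together, MAP1LC3A lies far below, and the ATG14 points of sgZNF507 are set off to the right.

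As transcripts, the 39 tested genes were of middle rank in these cells. Their median percentile by level per kilobase among 14744 tested protein-coding genes was 63.1, and 29 of 39 were in the upper part. The ratio of the highest to the lowest of the 6 libraries was largest for ATG14, 1.52, and had a median of 1.13 over the 39 genes. Levels per kilobase use the length of all annotated exons of a gene joined, which overstates the length of the transcripts made, so differences of level between genes are approximate.

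Genes that act with the core machinery or above it were listed separately. Of 30 tested accessory genes, such as further subunits of the PI 3-kinase complexes, fusion proteins and receptors for organelles, 0 passed in any of the 3 comparisons in edgeR, and 0, 0 and 2 had an unadjusted p under 0.05 in sgZNF507 against EV, sgZNF146 against EV and sgZNF507 against sgZNF146 (3.39%, 2.43% and 4.03% of all tested genes). The largest of the 2 in size was VAMP8, a SNARE of the lysosomal side, with a log2 fold change of -0.33 (SE 0.14, adjusted p = 1.00) in the last. In sgZNF507 against EV the most negative log2 fold change of the list was -0.29 (SE 0.30, adjusted p = 1.00) for MAP1LC3C, a further ATG8 gene. In sgZNF146 against EV the highest was 0.40 (SE 0.27, adjusted p = 1.00) for STBD1, a receptor for glycogen. The other gene with an unadjusted p under 0.05 was NRBF2, which binds the ATG14-containing complex. It was at 13.3 and 13.6 CPM in EV, 14.3 and 14.3 in sgZNF146 and 11.7 and 12.3 in sgZNF507, lowest in sgZNF507, with log2 fold changes there of -0.26 (SE 0.11, adjusted p = 1.00) against sgZNF146 and -0.17 (SE 0.11, adjusted p = 1.00) against EV. Of 24 genes of mTORC1, its lysosomal anchor and AMPK, which control ULK1, 0 passed in any comparison in this fit, and PRKAG2 passed in sgZNF507 against sgZNF146 with a replicate block in edgeR. An unadjusted p under 0.05 in edgeR was reached by 2, 1 and 4 of the 24 (8.33%, 4.17% and 16.7%), against the 3.39%, 2.43% and 4.03% of all tested genes. Among them RRAGB and RRAGC, GTPases that bring mTORC1 to the lysosome, had log2 fold changes of -0.43 (SE 0.16, adjusted p = 1.00) and -0.25 (SE 0.097, adjusted p = 1.00) in sgZNF507 against EV. In sgZNF507 against sgZNF146 the 4 were RRAGB, at -0.36 (SE 0.16, adjusted p = 1.00), RHEB, the GTPase that activates mTORC1, at 0.19 (SE 0.070, adjusted p = 1.00), LAMTOR3, a subunit of the lysosomal anchor, at 0.27 (SE 0.11, adjusted p = 1.00), and PRKAG2. Log2 fold changes of RHEB against EV were 0.044 (SE 0.070) in sgZNF507 and -0.15 (SE 0.070) in sgZNF146. RHEB and PRKAG2 lie close together on chromosome 7, at 151163098 to 151217206 and 151253210 to 151574299. For each, both sgZNF146 libraries lay below both EV libraries, and whether their position had a part was not tested. PRKAG2, a regulatory subunit of AMPK, was at 22.4 and 21.8 CPM in EV, 17.2 and 18.0 in sgZNF146 and 24.3 and 20.5 in sgZNF507, with log2 fold changes of -0.33 (SE 0.11, adjusted p = 1.00) in sgZNF146 against EV and 0.35 (SE 0.11, adjusted p = 0.886) in sgZNF507 against sgZNF146. The median log2 fold changes in sgZNF507 against EV were 0.011 for the accessory genes and 0.0039 for the mTORC1 and AMPK genes.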

How the data were processed

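The 6 RNA-seq libraries, 2 each of EV, sgZNF146 and sgZNF507, were grouped by the titles given with the data. Before deposit the authors used the Fastx Toolkit for clipping and Bowtie to discard ribosomal RNA, mapped what remained to hg19 with TopHat2 as a stranded library and counted them per Ensembl gene with featureCounts. The deposited values are raw counts per gene, neither normalized nor pooled, and without molecular identifiers duplicates count as reads. Versions and the strand setting of featureCounts are not given in the sources used here.

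Gene names, positions and exon lengths came from GENCODE v44 on GRCh37, which matched 96.1% of 57773 identifiers. Genes were filtered with filterByExpr (22010 left), normalized by TMM and tested with the quasi-likelihood test of edgeR 4.0.16 under R 4.3.3 on all 6 libraries, with p-values adjusted by Benjamini-Hochberg over the 22010 genes and a threshold of 0.05. SEs were derived from the F statistic and are approximate. p-values set a difference against the spread within groups, pooled over the 3 groups of 2 libraries and moderated toward that of other genes. This gave 3 residual and 9.51 prior degrees of freedom. The 2 libraries of a group, labelled biological duplicates, differed by more than counting noise (chi-square per degree of freedom of 6.85 to 10.3). DESeq2 1.42.0 was an alternative. Other alternatives were 2 normalizations, 2 filters, fits on 4 libraries, a replicate block and leaving out each library. The steps were tested on simulated data. Python 3.11.15 and matplotlib 3.10.9 were used for the figures.

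The 40 genes, the other lists, the tests and the alternatives were chosen with earlier results of these data known. Among the 40 genes, values are given for those with an adjusted or unadjusted p under 0.05 in any comparison, for the highest and lowest log2 fold change and the highest and lowest level of each role, and for other members where they complete a complex. PIK3C3, NRBF2, RRAGC, RHEB, COL1A1 and the promoter motif were chosen after the values were seen. So were the genes overlapping or next to ATG14 and MAP1LC3B and the ratios among genes of the PI 3-kinase complexes. The values of 1 accessory gene are not reported here.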

Additional observations from a re-analysis of the deposited data

How the results depend on the processing

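The call of ATG14 was the one call on the 40 genes that turned on the processing. In sgZNF507 against EV and in sgZNF507 against sgZNF146, the number of listed genes past the threshold was 0 in the fit reported and 1, ATG14, without a filter, with DESeq2 on 6 libraries, with DESeq2 on 4, and with a replicate block in edgeR or in DESeq2. It stayed at 0 under the other normalizations, with at least 10 counts in every library, in edgeR on the 4 libraries compared and without any 1 library, where the lone library of a group is assumed to vary like the other groups. The cause was not tested. The adjusted p with the replicate number as a block was 1.7e-05 (edgeR) and 0.00390 (DESeq2) against EV and 2.0e-05 and 0.00454 against sgZNF146, at log2 fold changes of 0.51, 0.51, 0.50 and 0.51. The labels give replicate numbers but no shared day, and with 2 numbers the block is not taken as the design. Deviations of replicate 1 from the group mean correlated across genes with r = 0.19 between EV and sgZNF146, 0.24 between EV and sgZNF507 and 0.21 between sgZNF146 and sgZNF507, and over the 39 genes with 0.115, 0.424 and 0.425. In sgZNF146 against EV, 0 of the listed genes passed under every alternative. With the block in edgeR, 1 gene of the mTORC1 and AMPK list, PRKAG2, passed in sgZNF507 against sgZNF146, and 0 of the accessory genes passed under any alternative.

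The median log2 fold change of the 39 genes in sgZNF507 against EV ran from 0.0085 to 0.043 with 1 library left out, lowest without sgZNF507 replicate 2 and next lowest without EV replicate 2 (0.0100). It ran from -0.036 to 0.016 in sgZNF146 against EV, where its sign turned, and from 0.011 to 0.060 in sgZNF507 against sgZNF146. Genes past the threshold in the whole table numbered 40 in sgZNF507 against EV, 101 without a filter, 121 and 63 with the block in edgeR and DESeq2 and 12 to 44 with 1 library left out. In sgZNF507 against sgZNF146 they numbered 38, 112, 196, 75 and 13 to 37 in the same order, and in sgZNF146 against EV 0, 19, 33, 0 and 0 to 3, with 3 on the 4 libraries in edgeR and in DESeq2. Signs turned for values near 0. ATG13 in sgZNF146 against EV was -0.0012 and became 2.0e-04 with DESeq2's size factors, 0.0021 with the upper quartile, 6.1e-05 with at least 10 counts, 2.5e-04 with DESeq2 on 4 libraries and 4.0e-06 and 0.0010 with the block in edgeR and DESeq2. With 1 library left out, values turned in sgZNF507 against EV for ATG101 (-0.070 to 0.0095), ATG7 (-0.024 to 0.13), BECN1 (-0.020 to 0.050), EPG5 (-0.031 to 0.14), GABARAPL2 (-0.033 to 0.10), STX17 (-0.22 to 0.0100), and in sgZNF146 against EV for ATG13 (-0.078 to 0.072), ATG14 (-0.084 to 0.093), ATG2A (-0.088 to 0.15), GABARAPL1 (-0.16 to 0.12), MAP1LC3B (-0.061 to 0.043), STX17 (-0.20 to 0.034), WDR45 (-0.21 to 0.017). With 2 libraries per group, unadjusted intervals did not resolve a difference under about 0.2 on the log2 scale for most of these genes. The threshold on the adjusted p was stricter, so larger differences could also miss it. In sgZNF507 against EV, MAP1LC3B at 0.22 and ATG14 at 0.51 both missed it in the fit reported, ATG14 with an adjusted p of 0.0677 in edgeR.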
